A study of Mus musculus with 8 samples.

Results

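Tanycytes are elongated glia that line the floor and the lower walls of the third ventricle, where they touch the cerebrospinal fluid on one side and send a process to the capillaries or neurons of the hypothalamus (HT) on the other. They convert and bind thyroid hormone, sense nutrients and respond to season and fasting. Ciliated ependymal cells cover the rest of the ventricle wall and move the fluid with their motile cilia. Both cell types make up a thin lining, so that their transcripts are a small part of the RNA of a whole HT.

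The expression of 10 genes of these cells was examined in the HT of adult male mice that had undergone maternal separation (MS) and of undisturbed controls. The genes were chosen by name, though with earlier results of these data known. They are *Rax*, *Gpr50*, *Crym*, *Vim*, *Nes*, *Foxj1*, *Lhx2*, *Rarres2*, *Fgf10* and *Col23a1*. The array held 12 probes for them out of 55681, since *Col23a1* had 3 probes and each other gene had 1. A probe entered the tests if 4 or more of the 8 arrays showed it well above background, which held for 37314 probes and for all 12 of these, each on all 8 arrays. At 1 probe per gene, the 10 genes were part of 16595 tested ones.

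Both groups were C3H/HeN. In the MS group were 4 mice whose litters were separated from the dam daily between PND 2 and 14 while the dam received chronic unpredictable stress, and the control group held 4 mice from undisturbed litters. All were weaned at PND 21, housed with mice of the same sex and condition, trained in an operant task for palatable food as adults, and fasted before they were killed. For each mouse, 200 ng of HT RNA were labeled with Cy3 and hybridized to 1 array, and all 8 arrays lay on 1 slide in 2 rows that each carried 2 MS and 2 control mice. The MS mice bear the numbers 5.3, 7.2, 7.1 and 7.6 in the labels, and the control mice 8.2, 8.4, 6.2 and 8.5. The part before the dot, which most mice of a group share and none of the other group has, is not explained in the labels or the methods. The tests measure the spread between these mice and treat them as independent.

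A level is given below as the log2 of the processed signal minus the 75th percentile of the same array, so that 0 is a signal equal to that percentile and a difference of 1 is a doubling. Levels of different probes cannot be set against each other. Values of single mice follow the order 5.3, 7.2, 7.1 and 7.6 for MS and 8.2, 8.4, 6.2 and 8.5 for controls, with the first pair of each group in row 1 of the slide and the second pair in row 2. A log2 fold change is the MS mean minus the control mean, with its standard error (SE) and 95% confidence interval (CI) from limma.

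The arrays differed in brightness and in the share of probes they detected. Of all probes, 67.38% to 71.12% were well above background in row 1 and 61.2% to 67.59% in row 2. The share was lowest in MS 7.6 (61.2%) and control 8.5 (62.76%). At the 75th percentile, the signal ranged between 567 and 1018 in MS mice and between 853 and 967 in control mice, with MS 7.6 the dimmest, and 34079 to 38724 probes were well above background in MS mice against 34948 to 39601 in control mice. All 14 listed genes of hypothalamic neurons and nuclei, such as *Pmch*, *Agrp*, *Pomc* and *Avp*, were measured well enough to be tested. Genes of neighboring tissues were also measured, and their amount varied between mice. The mean centered level of 8 pituitary genes lay between -0.93 and -0.060 in MS mice and between -0.58 and 2.18 in control mice, where control 6.2 was the highest. That of 9 genes of fibroblasts and meninges lay between -0.62 and 0.98 in MS mice and between -0.80 and 0.87 in control mice, and MS 7.6 and control 8.5 were the highest. For 9 astrocyte genes it lay between 0.020 and 0.056 in MS mice and between -0.073 and -0.001 in control mice. It was the only list of cell types or tissues whose groups did not overlap, and the difference was not tested.

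No difference between MS and control mice passed the test in any of the 10 genes. With limma, 0 of the 12 probes passed an adjusted p of 0.05, as 0% of all tested probes did (0 of 37314), and the adjusted p of the 12 lay between 0.981 and 0.9996. At an unadjusted p of 0.05, 0 of 12 passed, against 3.3% of all probes (1230 of 37314). The values of both groups overlapped for all 12 probes, while 2.03% of all probes (757 of 37296 with a value on every array) had groups that did not overlap. With 1 probe per gene, 5 genes were above 0 and 5 below, with a median log2 fold change of 0.015 (0.0046 over all tested probes, of which 51.8% were above 0). With a mouse left out, this median lay between -0.048 (without control 8.2) and 0.11 (without control 8.5), and it was 0.13 in row 1 alone and -0.092 in row 2 alone. All 12 CIs stayed within a doubling and a halving, which 94.8% of all tested CIs did.

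**Figure D1:**
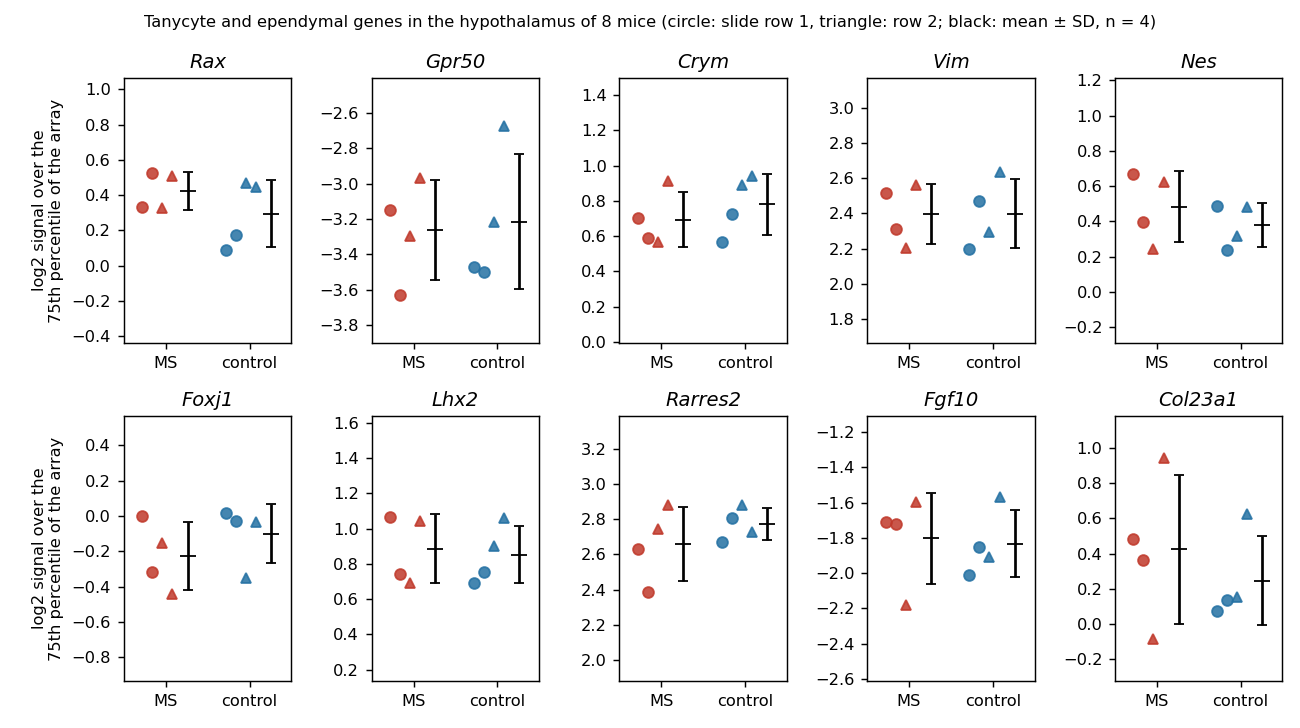
Level of each gene in the 4 MS mice (left, red) and the 4 control mice (right, blue), as log2 signal over the 75th percentile of the array. Every panel spans 1.5 log2 units, points are mice (circles for slide row 1, triangles for row 2), and black bars are the mean ± SD. The groups overlap in all 10 panels.

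Among the intermediate filaments, *Vim* encodes vimentin, which fills the long process of tanycytes but is also made by endothelial and meningeal cells. Its probe (mm9 chr2:13504232-13504291, plus strand) was at 2.51, 2.31, 2.20 and 2.56 in the MS mice, against 2.20, 2.47, 2.29 and 2.64 in the control mice. Each group held mice near the top and near the bottom of the range. The means were 2.40 ± 0.17 in MS mice and 2.40 ± 0.19 in control mice (SD, n = 4 each), and the log2 fold change of -0.0020 (SE 0.12, CI -0.28 to 0.27) was the closest to 0 of all 12 probes (exact permutation test, two-sided, p = 1).

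*Nes* encodes nestin, an intermediate filament of neural progenitors that tanycytes keep in the adult. It was at 0.67, 0.39, 0.24 and 0.62 in MS mice and at 0.49, 0.24, 0.32 and 0.48 in control mice (mm9 chr3:87784303-87784362, plus strand). MS 5.3 and MS 7.6 were above every control mouse, while the other two MS mice lay within the control range. For *Nes* the log2 fold change was 0.10 (SE 0.11, CI -0.15 to 0.35; exact permutation test, two-sided, p = 0.4).

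Of the transcription factors, *Rax* is a homeobox gene that marks tanycytes in the adult HT. Its level was 0.33, 0.53, 0.33 and 0.51 in the MS mice, against 0.090, 0.18, 0.47 and 0.45 in the control mice. Both control mice of row 1 lay below all others, and both control mice of row 2 lay within the MS range. That gave a log2 fold change of 0.13 (SE 0.10, CI -0.11 to 0.37; exact permutation test, two-sided, p = 0.286), with 0.30 within row 1 and -0.038 within row 2.

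*Lhx2*, a LIM homeobox gene needed for tanycytes to form, was at 1.07, 0.74, 0.69 and 1.05 in the MS mice and at 0.69, 0.76, 0.90 and 1.06 in the control mice (mm9 chr2:38224933-38224992, plus strand). Each group spread over nearly the same range. Its log2 fold change was 0.035 (SE 0.12, CI -0.24 to 0.31; exact permutation test, two-sided, p = 0.83), with 0.18 within row 1 and -0.11 within row 2.

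*Foxj1* switches on the genes of motile cilia and stands for the ciliated ependyma. Levels of 0.0021, -0.32, -0.15 and -0.44 were found in the MS mice, and of 0.015, -0.026, -0.35 and -0.035 in the control mice (mm9 chr11:116192214-116192273, minus strand). Of the control mice, 3 lay close together near the top with MS 5.3, and control 6.2 lay apart from them among the lower MS mice. *Foxj1* had a log2 fold change of -0.13 (SE 0.12, CI -0.40 to 0.15; exact permutation test, two-sided, p = 0.343), with -0.15 within row 1 and -0.10 within row 2.

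Of the genes that bind or carry signals, *Gpr50* encodes an orphan receptor of the melatonin receptor family that tanycytes express strongly. Its probe matches mm9 chrX:68921205-68921264 on the plus strand, and it is shown because its sequence places it at the end of an open reading frame, with the stop codon of that frame in capitals.
Gpr50 probe: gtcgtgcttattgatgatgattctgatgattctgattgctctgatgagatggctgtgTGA
The level of *Gpr50* was -3.15, -3.63, -3.30 and -2.97 in the MS mice, against -3.47, -3.50, -3.22 and -2.67 in the control mice. MS 7.2 was the lowest and control 8.5 the highest of all mice, with a 1.95-fold range between them. The log2 fold change was -0.047 (SE 0.21, CI -0.53 to 0.43; exact permutation test, two-sided, p = 0.857), with 0.094 within row 1 and -0.19 within row 2.

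*Crym* encodes mu-crystallin, a protein that holds thyroid hormone inside the cell. It was at 0.70, 0.59, 0.57 and 0.91 in MS mice and at 0.56, 0.72, 0.89 and 0.94 in control mice (mm9 chr7:127329970-127330029, minus strand). MS 7.6 lay between the 2 control mice of row 2, which were higher than the other MS mice. Its log2 fold change was -0.086 (SE 0.11, CI -0.34 to 0.16; exact permutation test, two-sided, p = 0.514), with 0.0041 within row 1 and -0.18 within row 2.

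*Rarres2* encodes chemerin, a secreted ligand that tanycytes make under control of photoperiod in rats. It was at 2.63, 2.39, 2.74 and 2.88 in the MS mice and at 2.67, 2.80, 2.88 and 2.73 in the control mice, from a probe whose ends lie 195 bases apart in the genome (mm9 chr6:48519775-48519969, minus strand). MS 7.2 was the lowest of all mice, and the other values of both groups were mixed. A log2 fold change of -0.11 (SE 0.11, CI -0.36 to 0.13; exact permutation test, two-sided, p = 0.429) was found, with -0.23 within row 1 and 0.0079 within row 2.

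*Fgf10* encodes a fibroblast growth factor that marks tanycytes of the ventricle floor. It was the only one of the 10 genes read from repeated spots, with 10 spots of the probe averaged on each array (mm9 chr13:119580365-119580424, plus strand). Its level was -1.71, -1.72, -2.18 and -1.60 in the MS mice, against -2.01, -1.85, -1.91 and -1.57 in the control mice. MS 7.1 was below all other mice, while control 8.5 and MS 7.6 were at the top. The log2 fold change was 0.032 (SE 0.14, CI -0.30 to 0.36; exact permutation test, two-sided, p = 0.914), with 0.22 within row 1 and -0.15 within row 2.

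*Col23a1* encodes a collagen that spans the cell membrane and is a tanycyte marker in single-cell data of the mouse HT. Its 3 probes match mm9 chr11:51396885-51396944, chr11:51394105-51394164 and chr11:51381425-51382971, all on the plus strand, and are called probes 1 to 3 by brightness. The ends of probe 3 lie 1547 bases apart although it has 60 bases, so it crosses at least 1 splice junction, and it is shown for that reason.
Col23a1 probe 3: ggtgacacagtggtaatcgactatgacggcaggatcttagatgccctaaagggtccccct
Probe 1, which stood for the gene, was at 0.48, 0.36, -0.086 and 0.94 in the MS mice, against 0.076, 0.14, 0.15 and 0.62 in the control mice. MS 7.6 was the highest and MS 7.1 the lowest of the 8, and control 8.5 stood apart from the other 3 controls. Over all mice the range was 2.04-fold, the widest of the 12 probes. The log2 fold change was 0.18 (SE 0.22, CI -0.32 to 0.67; exact permutation test, two-sided, p = 0.486). It was 0.0071 without MS 7.6, the mouse with the dimmest array, 0.35 without MS 7.1 and 0.30 without control 8.5.

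The other probes of *Col23a1* ordered the mice in much the same way. Probe 2 was at 0.26, 0.084, -0.51 and 0.37 in MS mice and at -0.18, -0.18, -0.25 and 0.14 in control mice. Probe 3 was at -3.75, -3.47, -4.01 and -3.45 in MS mice and at -3.94, -4.08, -3.89 and -3.55 in control mice. In both, MS 7.1 was at or near the bottom and MS 7.6 at the top. Over the 8 mice, Pearson's r was 0.93 between probes 1 and 2, 0.84 between probes 1 and 3, and 0.81 between probes 2 and 3. The log2 fold change was 0.17 (SE 0.19, CI -0.27 to 0.60) for probe 2 and 0.20 (SE 0.16, CI -0.16 to 0.55) for probe 3, and that of all 3 probes was larger in row 1 (0.32, 0.35 and 0.41) than in row 2 (0.040, -0.017 and -0.013).

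**Figure D2:**
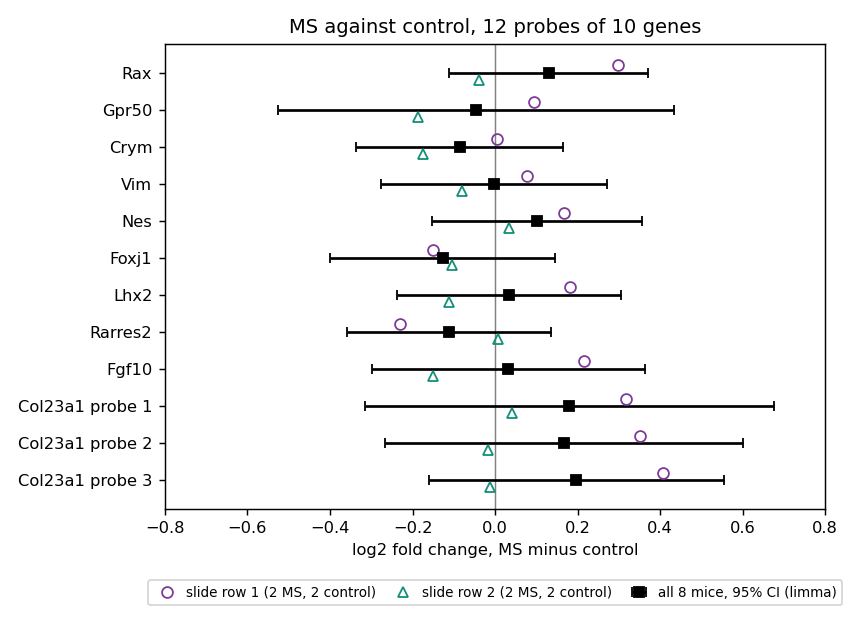
Log2 fold change of MS against control for the 12 probes, with squares and bars for all 8 mice with the 95% CI, circles for slide row 1 and triangles for row 2 (2 MS and 2 control mice each). All 12 intervals include 0, and 9 of the 12 probes change sign between the rows.

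In bulk tissue, fewer cells of a type and less RNA per cell cannot be told apart, and this holds for each level given here. The variation of these genes between mice was wider than that of most probes, whatever the group. The SD over the 8 mice was 0.16 for *Crym*, above that of 58.9% of the tested probes, and 0.34 for *Col23a1*, above that of 88.0%, while the median SD over all tested probes was 0.14.

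The genes were then compared with each other over the 8 mice. Between most of the tanycyte genes r was above 0, and it was near or below 0 for most pairs with *Foxj1* or *Rarres2*. Of 45 pairs, 35 had a Pearson's r above 0, 6 had an r above 0.8, and 11 had an exact permutation p under 0.05. After Benjamini-Hochberg (BH) adjustment over the 45 pairs, 0 pairs passed by Pearson's r and 2 by Spearman's rho. All p-values of correlations are two-sided.

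Both pairs that passed involved *Fgf10*. For *Fgf10* and *Col23a1*, Pearson's r was 0.91 (exact permutation p = 0.00206, BH 0.0926) and Spearman's rho was 0.95 (exact permutation p = 0.00114, BH 0.0257). Without the 2 mice farthest from the median of *Fgf10* (MS 7.1 and control 8.5), r was 0.91, and it was 0.93 with the mean of each slide row removed. For *Vim* and *Fgf10*, r was 0.87 (exact permutation p = 0.00722, BH 0.131) and rho was 0.95 (exact permutation p = 0.00114, BH 0.0257), with r at 0.80 without the 2 farthest mice and 0.87 with row means removed. As a background, 0.0844% of 16590 genes had an r with *Fgf10* as high as that of *Col23a1*, and 0.283% one as high as that of *Vim*.

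The other 4 pairs above 0.8 each held *Lhx2* or *Col23a1*. R was 0.83 for *Vim* and *Lhx2*, 0.83 for *Gpr50* and *Lhx2*, 0.82 for *Lhx2* and *Col23a1*, and 0.81 for *Vim* and *Col23a1*, and none of the 4 passed after BH adjustment (exact permutation, BH 0.131 to 0.138 for r, and rho 0.86, 0.74, 0.81 and 0.88). Without the 2 mice farthest from the median of the first gene of the pair, r was 0.73, 0.85, 0.83 and 0.78. With row means removed, 11 pairs were above 0.8, and leaving out a mouse gave 3 such pairs without control 8.5 and 10 without control 6.2. Within a row there were 4 mice, too few for a correlation of its own. Control 8.5 and MS 7.6 were above the mean of the 8 mice in each of *Fgf10*, *Col23a1*, *Vim*, *Lhx2*, *Gpr50*, *Crym*, *Nes* and *Rax*, so that the mice at the top came from both groups. MS 7.1 was below the mean in all 8 genes, and no control mouse was.

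**Figure D3:**
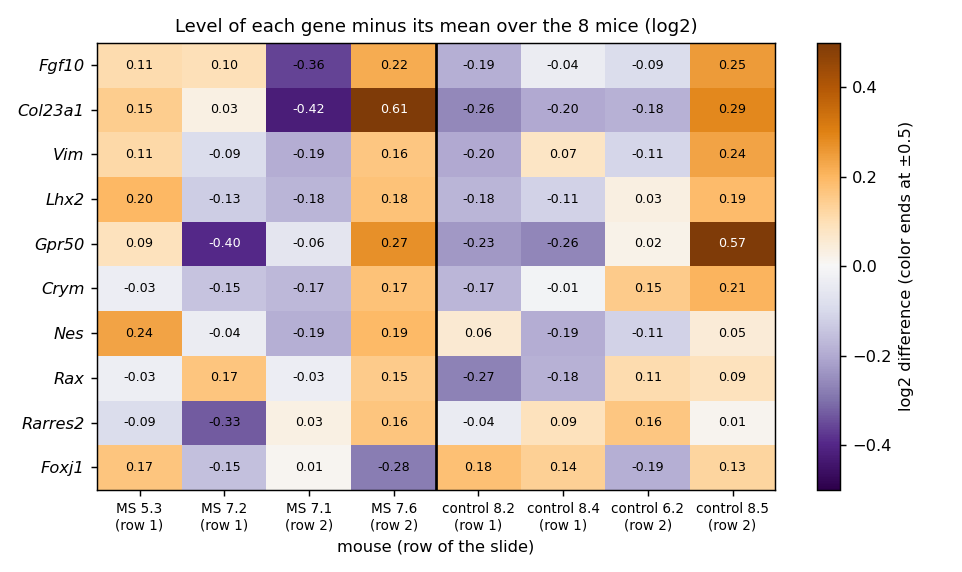
Level of each gene (rows) in each mouse minus the mean of the gene over the 8 mice, in log2, with the 4 MS mice left of the line and the 4 control mice right of it. MS 7.6 and control 8.5 are above the mean, and MS 7.1 below it, in the upper 8 genes.

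Over all 8 mice, *Foxj1* had no r above 0.05 with any other of the 10 genes, but some of these values were not stable. With *Rarres2*, r was -0.16, or 0.72 without control 6.2 and MS 7.6, the farthest from the median of *Foxj1*. Without MS 7.2 it was -0.85. With *Gpr50*, r was -0.025, or 0.48 with row means removed and -0.72 without the 2 mice farthest from the median of *Gpr50*. The lowest r of *Foxj1* over all 8 mice was with *Rax*, at -0.76 (exact permutation p = 0.0337, BH 0.138), where rho was -0.81. There r was -0.74 without the 2 mice farthest from the median of *Rax*, and -0.69 with row means removed. *Rarres2* was closest to *Crym*, with an r of 0.61 (exact permutation p = 0.0985, BH 0.233, rho 0.52, and r 0.37 with row means removed), and was at -0.086 with *Fgf10* and at 0.088 with *Col23a1*.

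**Figure D4:**
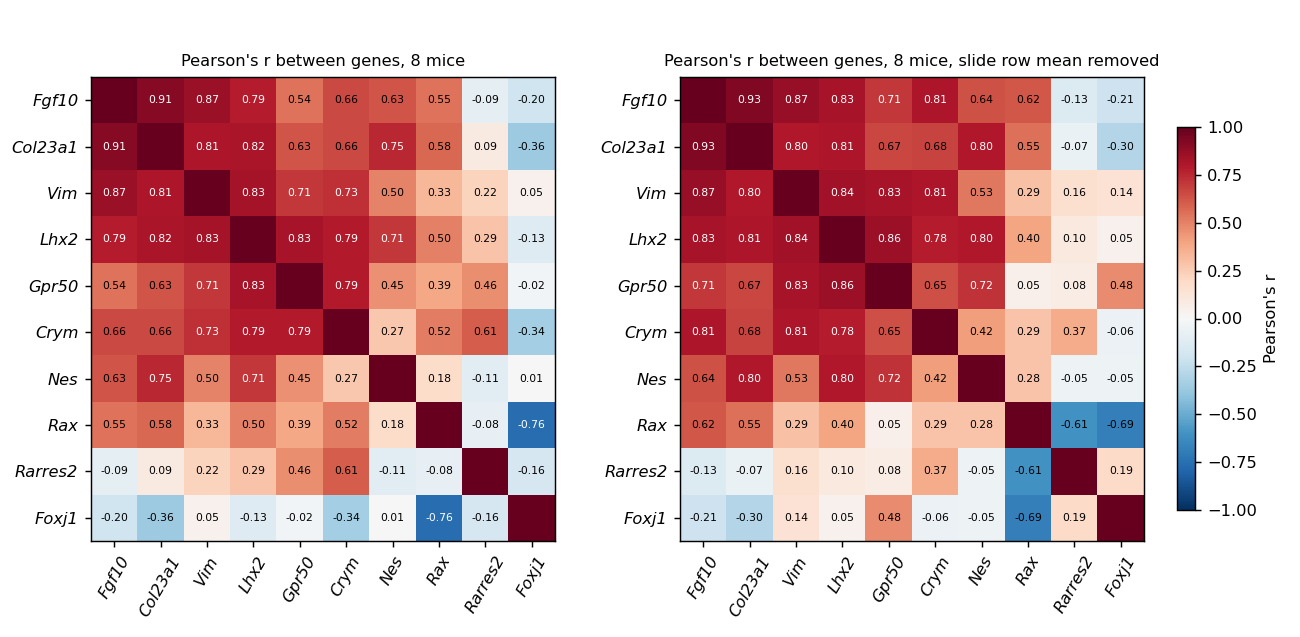
Pearson's r over the 8 mice between each pair of the 10 genes (1 probe per gene), as measured (left) and with the mean of each slide row removed (right). The 6 genes from *Fgf10* to *Crym* form a block of r above 0.5, and *Foxj1* and *Rarres2* stand outside it.

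Promoters are shown for reference for *Fgf10*, *Col23a1*, *Vim* and *Lhx2*, each of which had an r above 0.8 with another of them. No pair with *Lhx2* passed after BH adjustment. The promoters are from RefSeq on GRCm38.p6, each with 250 bases before the start of the transcript and 50 after it. The table held promoters of 6 of the 10 genes, with 2 for *Lhx2*, of which the first is shown. Capitals mark GGGCGG, the core of a GC box, or its reverse complement CCGCCC. They also mark TATAAA, the element of core promoters that the TATA-binding protein reads. The windows are chr13:118714449-118714748 for *Fgf10*, chr11:51289670-51289969 for *Col23a1*, chr2:13574061-13574360 for *Vim* and chr2:38339031-38339330 for *Lhx2*, all on the plus strand.
Fgf10 promoter: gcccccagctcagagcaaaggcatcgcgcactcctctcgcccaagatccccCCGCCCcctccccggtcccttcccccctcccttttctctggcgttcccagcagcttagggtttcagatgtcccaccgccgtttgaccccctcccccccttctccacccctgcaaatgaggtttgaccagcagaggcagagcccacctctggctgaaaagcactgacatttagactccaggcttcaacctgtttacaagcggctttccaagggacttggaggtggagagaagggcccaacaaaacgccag
Col23a1 promoter: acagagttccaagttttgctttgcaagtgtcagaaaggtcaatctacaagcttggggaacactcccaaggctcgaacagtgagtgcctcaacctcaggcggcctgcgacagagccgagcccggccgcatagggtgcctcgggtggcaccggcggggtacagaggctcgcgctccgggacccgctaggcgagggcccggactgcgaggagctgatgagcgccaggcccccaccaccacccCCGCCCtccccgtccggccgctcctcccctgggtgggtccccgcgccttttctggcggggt
Vim promoter: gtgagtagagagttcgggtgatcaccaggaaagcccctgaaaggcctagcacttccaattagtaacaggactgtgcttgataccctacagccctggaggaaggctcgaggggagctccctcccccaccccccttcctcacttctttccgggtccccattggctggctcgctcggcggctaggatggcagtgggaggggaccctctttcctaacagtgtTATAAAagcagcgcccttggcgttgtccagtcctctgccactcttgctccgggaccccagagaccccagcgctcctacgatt
Lhx2 promoter: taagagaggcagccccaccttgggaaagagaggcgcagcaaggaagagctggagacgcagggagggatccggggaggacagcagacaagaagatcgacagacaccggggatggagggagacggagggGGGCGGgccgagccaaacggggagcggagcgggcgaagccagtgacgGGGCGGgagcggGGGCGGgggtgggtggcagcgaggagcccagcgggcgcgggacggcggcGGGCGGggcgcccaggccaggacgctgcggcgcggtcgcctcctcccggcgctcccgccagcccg
Searched on both strands, GGGCGG was present in a promoter of 5 of the 6 genes and in 35.7% of all 32851 promoters. TATAAA was present in that of *Vim* alone and in 13.6% of all promoters. TAATTA, the core that homeodomain proteins bind, was in none of the 6 and in 5.29% of all promoters. No motif searched was shared by all 4 promoters shown.

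Other genes of the same cells were taken from lists. All 22 other tanycyte genes were tested, and 0 passed an adjusted p of 0.05 in limma in either direction, while 1 passed unadjusted, against 2.57% of all genes (426 of 16595). Of the 22, 9 were above 0 and 13 below, with a median log2 fold change of -0.041, against 0.013 over all genes, of which 9385 (56.6%) were above 0. The highest were *Frzb* (0.30, SE 0.28), a secreted Wnt antagonist, and *Hopx* (0.21, SE 0.092), a homeodomain-only protein. The lowest were *Fndc3c1* (-0.51, SE 0.55) and *Sprr1a* (-0.29, SE 0.46).

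Of 23 other ependymal genes, most of them parts of motile cilia, 22 were tested and *Spag17* was not. In limma 0 passed the adjusted test in either direction, 1 passed unadjusted, against 2.57% of all genes, and 4 were above 0 and 18 below, with a median of -0.063, against 56.6% of all genes above 0 and a median of 0.013. The highest values were those of *Enkur* (0.16, SE 0.13), a sperm and cilium protein, and *Mcidas* (0.099, SE 0.090), which starts the program of multiciliated cells. The lowest were those of *Calml4* (-0.24, SE 0.094) and *Tmem212* (-0.22, SE 0.10). The bright probe of *Mcidas* was at 5.81 in MS mice and 5.71 in control mice, and whether it reads that gene alone was not tested. *Foxj1* itself was at -0.13, and these lists were described by counts and medians without a test of the list.

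Each of the 10 genes was also set against the mean centered level of 12 lists of cell types and neighboring tissues over the 8 mice, which gave 120 relations. After BH adjustment, 1 relation passed by Pearson's r and 3 by Spearman's rho, and 13 had an unadjusted exact permutation p under 0.05. The relation that passed both was that of *Fgf10* and the other tanycyte genes, with an r of 0.95 and a rho of 1. Its exact permutation p for r was 2.48e-05, the smallest that the 40320 pairings can give, with a BH value of 0.00298, and r was 0.95 both without the 2 farthest mice and with row means removed. The call was lost without MS 7.1, the lowest mouse in both measures (r 0.91, exact permutation, BH 0.191), and in the authors' log2 table (r 0.91, BH 0.0819). The list stood at 0.045, 0.010, -0.18 and 0.057 in the MS mice and at -0.038, -0.0052, -0.030 and 0.14 in the control mice, in the same order of mice as *Fgf10*. *Vim* (r 0.85) and *Col23a1* (r 0.80) followed the list with a rho of 0.95 each (exact permutation, BH 0.0456 for rho and 0.105 and 0.241 for r). Without the 2 farthest mice their r was 0.83 and 0.88, and with row means removed 0.86 and 0.83. *Rax* had an r of 0.34 with the list and a rho of 0.52 (exact permutation, BH 0.714 for r), and *Rarres2* an r of -0.044 and a rho of -0.024 (exact permutation, BH 0.965 for r). R was 0.57 for *Gpr50*, 0.61 for *Nes*, 0.66 for *Crym*, 0.76 for *Lhx2* and 0.033 for *Foxj1*, none of which passed.

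Single genes of the list did not all follow *Fgf10*. Of 22 genes, 13 had an r above 0 with it, and that of *Fndc3c1* was 0.81. The median r was 0.28, against -0.070 over 16590 genes, and the lowest was -0.81 for *Sox2*. The list's mean was weighted to the genes that vary most, *Fndc3c1* (SD 0.88 over the 8 mice) and *Sprr1a* (SD 0.71). Without *Fndc3c1*, r of *Fgf10* with the list was 0.92 (exact permutation p = 0.00139), and with each gene divided by its SD it was 0.90 (exact permutation p = 0.00186). Neither passed after adjustment over the 120 relations (BH 0.0833 and 0.150). Of the 14 alternatives run for this relation, 10 passed and 4 did not, and 13 were added after the data had been seen, all but the removal of row means.

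*Foxj1* was not shown to follow the other ependymal genes, with an r of 0.43 (exact permutation p = 0.279, BH 0.620) and a rho of 0.33. The r was 0.57 without the 2 farthest mice and 0.75 with row means removed. Of the 22 single genes of that list, 14 had an r above 0 with *Foxj1*, with a median of 0.31, the highest for *Rsph1* (0.82), a radial spoke protein of cilia, and the lowest for *Ccno* (-0.63).

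**Figure D5:**
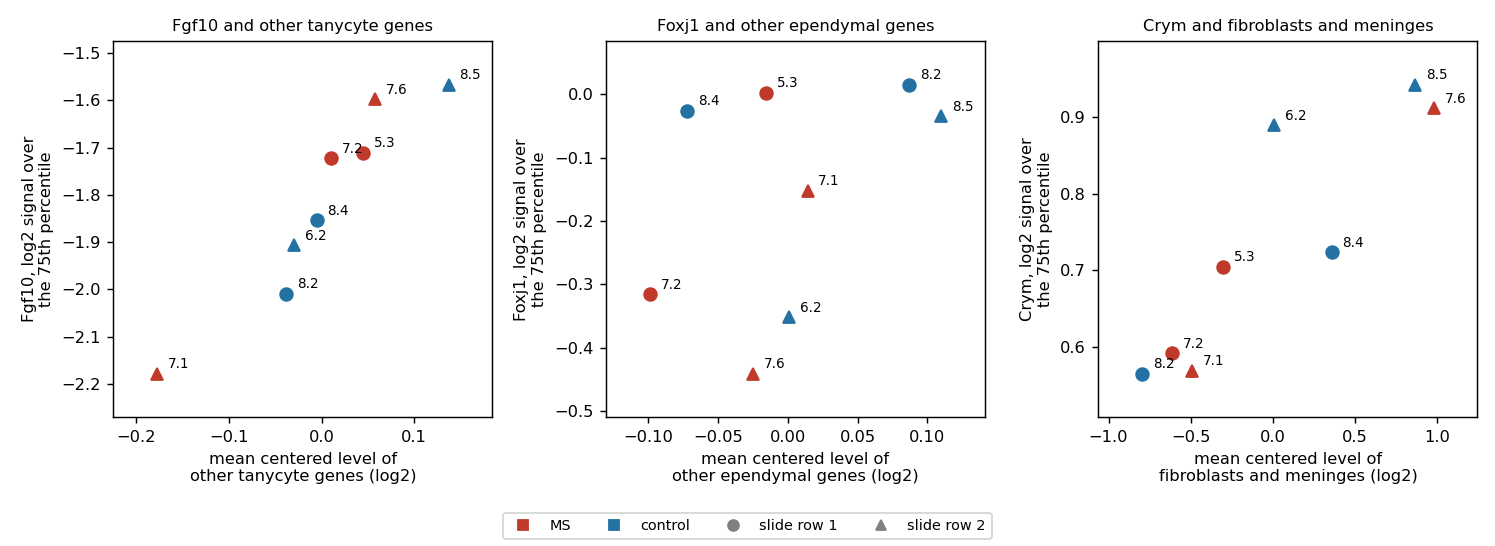
*Fgf10*, *Foxj1* and *Crym* in each mouse (vertical axis, log2 signal over the 75th percentile) against the mean centered level of a gene list (horizontal axis, log2). Red points are MS and blue points control mice, circles are slide row 1 and triangles row 2, and numbers name the mice. *Fgf10* and the other tanycyte genes had an r of 0.95, *Foxj1* and the ependymal genes had an r of 0.43, and *Crym* and the genes of fibroblasts and meninges had an r of 0.89, which did not pass after adjustment.

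Some relations with other tissues were as high as those within the set, without passing the adjustment. *Crym* with the genes of fibroblasts and meninges had an r of 0.89 and a rho of 0.93 (exact permutation p = 0.00645 for r, BH 0.155), with r at 0.74 without the 2 farthest mice and 0.84 with row means removed. *Vim* with the same list had an r of 0.84 and a rho of 0.81 (exact permutation p = 0.0146 for r, BH 0.241), with r at 0.70 without the 2 farthest mice and 0.90 with row means removed. *Crym* also had an r of 0.71 with the choroid plexus genes and 0.63 with the pituitary genes (exact permutation, BH 0.372 each). With row means removed these were 0.79 and 0.53. *Rarres2* had an r of 0.76 with the genes of hypothalamic neurons and nuclei (exact permutation, BH 0.333). For *Gpr50* and the oligodendrocyte genes, r was -0.91 and rho -0.88 (exact permutation p = 0.00251 for r, BH 0.105), and r was -0.89 without the 2 farthest mice and -0.91 with row means removed. With the same list, r was -0.79 for *Lhx2* (exact permutation p = 0.00449, BH 0.135) and -0.69 each for *Vim*, *Fgf10* and *Col23a1*. It was -0.67 for *Crym*, -0.57 for *Nes* and -0.44 for *Rax*, but -0.086 for *Rarres2* and -0.048 for *Foxj1*. With the astrocyte genes, r was 0.69 for *Rax* and -0.67 for *Foxj1* (exact permutation, BH 0.372 each). Without the 2 farthest mice these were -0.039 and -0.63. The part of the neighboring tissues in the variation of the tanycyte genes was not tested. The brightness of the arrays also moved with some of the genes. Of 20 relations of the genes with the log2 of the 75th percentile or with the number of probes above background, 0 passed BH adjustment by Pearson's r and 1 by Spearman's rho. It was that of *Gpr50* with the percentile, where rho was -0.93 (exact permutation p = 0.00223, BH 0.0446) and r was -0.57 (exact permutation p = 0.145, BH 0.263), or -0.32 with row means removed. *Col23a1* had an r of -0.74 with the percentile (exact permutation p = 0.0384, BH 0.256), and of -0.76 with row means removed. Without the 2 mice farthest from its median r was 0.26. They include MS 7.6, the dimmest array, so leaving them out also narrowed the range of brightness. That check cannot tell whether the relation rests on single mice. *Crym* had the lowest p for r, with an r of -0.65 with the percentile (exact permutation p = 0.0133, BH 0.256). Its rho was -0.81, and r was -0.46 with row means removed. For *Fgf10*, r with the percentile was -0.45 (exact permutation p = 0.259), or -0.60 without the 2 farthest mice and -0.53 with row means removed. With the percentile, r over all 8 mice was below 0 for every gene but *Foxj1* (0.55), and lay between -0.74 (*Col23a1*) and -0.40 (*Rax*) for the others. For *Foxj1* it was 0.38 with row means removed and -0.59 without the 2 farthest mice, so its sign was not stable. The part of the brightness in the variation of these genes was not tested.

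The genes whose levels were most like those of each of the 10 over the 8 mice, among 16590 genes with 1 probe each, were named by the 3 highest values of Pearson's r, as a description. *Col4a5* (0.97), *Crip2* (0.96) and *Wls* (0.96) were the most like *Fgf10*, and *Col4a6* (0.96), *Cpne8* (0.96) and *Cand1* (0.96) the most like *Col23a1*. *Col4a5* and *Col4a6* encode collagen chains of basement membranes, and *Wls* carries Wnt proteins to the cell surface. *Vim* was most like *Foxd2* (0.98), *Poldip3* (0.97) and *Afap1* (0.95), and *Lhx2* most like *Capsl* (0.97), *Glb1l* (0.97) and *Pram1* (0.97). *Foxj1* was most like *1700066B19Rik* (0.99), *Sarm1* (0.98) and *Zfp646* (0.97). For *Rax* the genes were *Slc6a15* (0.96), *Trp53inp1* (0.96) and *Bpifb3* (0.96), and for *Gpr50* they were *Pramel34* (0.96), *Bgn* (0.95) and *Lrfn1* (0.95). *Crym* came closest to *Tor4a* (0.99), *Cpt1a* (0.98) and *Arhgef5* (0.98), *Nes* to *Trappc11* (0.98), *Cnpy4* (0.98) and *Phlpp2* (0.96), and *Rarres2* to *Gamt* (0.97), *Slc6a16* (0.96) and *Cdhr2* (0.96). Beside these, 2.18% to 5.44% of the genes had an absolute r over 0.8 with a given one of the 10.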

How the data were processed

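RNA from the HT of 4 MS and 4 control mice was measured on 1-color Agilent arrays, 1 array per mouse. The authors deposited the scanner output of Feature Extraction 10.10.1.1, in which the processed intensity of each spot is corrected for background. A table with a log2 value per probe, made by the authors with limma according to the submitters' notes, served as an alternative, and its normalization is not given in the sources used. The headers place the probes on mm9 and carry an array design number that differs from the one in the paper's methods.

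Control and outlier spots were dropped. Spots of a probe were averaged after taking log2 of their processed intensity (59305 spots, 55681 probes), and each array was set relative to its 75th percentile. With R 4.3.3 and limma 3.58.1, the probes that stood well above background on 4 or more arrays were compared with lmFit and eBayes, with BH adjustment over all 37314 at 0.05, which was tested on simulated data. The number of arrays limits the precision. Single values were also compared by an exact permutation test over the 70 ways to choose 4 of 8 mice, whose lowest p is 0.0286. Correlations were computed in Python 3.11.15 with scipy 1.17.1, with exact p-values over 40320 pairings. The brightest probe stood for its gene.

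The text names the 10 genes, for each of them the 3 genes of highest r, and the 2 highest and 2 lowest genes of the other tanycyte and other ependymal lists. It also names genes of a list at the ends of its r values or SDs, which were chosen after their values were seen. Members, lists and tests were chosen with earlier results of these data known. The alternatives were other scalings and background corrections, the authors' table, other filters on dim probes, the slide row as a block or alone, a random block for the part of the mouse number before the dot, an intensity trend, array weights and each mouse left out. The value of 1 gene of the lists is not reported here.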

Additional observations from a re-analysis of the deposited data

Results flagged for a closer look

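Of the 24 groups of 4 mice (12 probes in 2 groups), 3 held a mouse far from the other 3 by Dixon's test, where chance alone gives about 1 in 20. *Foxj1* was at -0.35 in control 6.2, while the nearest control mouse was at -0.035, a gap of 0.865 of the group's range. *Col23a1* probe 1 was at 0.62 in control 8.5, with the nearest control mouse at 0.15 (0.860 of the range), and *Col23a1* probe 2 was at 0.14 in the same mouse, with the nearest at -0.18 (0.830 of the range). The probes of *Col23a1* measure the same gene, so these last values are not independent of each other.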

How the results depend on the processing

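In each of the 21 alternatives run, 0 of the 12 probes passed the adjusted test. The sign of small fold changes was not stable. Row 1 alone gave 0.094 for *Gpr50*, 0.0041 for *Crym* and 0.077 for *Vim*, and row 2 alone gave -0.038 for *Rax*, -0.11 for *Lhx2*, 0.0079 for *Rarres2*, -0.15 for *Fgf10*, -0.017 for *Col23a1* probe 2 and -0.013 for probe 3, all turned in sign. *Vim* turned to 0.013 with median scaling, and with a mouse left out it lay at 0.027 without MS 7.2, 0.062 without MS 7.1, 0.023 when control 8.4 was dropped and 0.077 when control 8.5 was. *Gpr50* turned to 0.077 without MS 7.2 and 0.13 without control 8.5. *Lhx2* turned to -0.025 without MS 5.3, -0.018 without MS 7.6 and -0.018 when control 8.2 was dropped, and *Fgf10* to -0.026 without control 8.2 and -0.036 without MS 7.6. The cause was not tested. The median over the 10 genes lay between -0.048 and 0.11 with a mouse left out and was 0.13 in row 1 alone and -0.092 in row 2 alone. *Col23a1* probe 1 lay between 0.0071 (without MS 7.6) and 0.35 (without MS 7.1).

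Of the pairs, 0 passed by Pearson's r and 1 did with normexp background correction (*Fgf10* and *Col23a1*, r 0.95), and 0 to 1 did with a mouse left out. The number with r above 0.8, which was 6, became 11 with row means removed and 3 (without control 8.5) to 10 (without control 6.2) with a mouse left out. The relation of *Fgf10* with the other tanycyte genes passed BH adjustment over the 120 relations in 10 of 14 alternatives, of which 13 were added after the data had been seen, all but the removal of row means. It no longer passed in the authors' table (r 0.911, exact permutation, BH 0.0819), with the list's genes divided by their SD (0.901, BH 0.150) or without *Fndc3c1* (0.919, BH 0.0833), and with a mouse left out r lay between 0.907 (without MS 7.1, BH 0.191) and 0.968. No paired analysis was possible because the mouse numbers name single mice and none is shared between the groups.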
